A study of Homo sapiens with 6 samples.

Results

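The genes described here encode 4 families of enzymes that change small reactive or fat-soluble molecules: the aldo-keto reductases (AKR), the aldehyde dehydrogenases (ALDH), the UDP-glucuronosyltransferases (UGT) and the cytosolic sulfotransferases (SULT). They were taken by symbol, as every gene of the deposited table whose name starts with AKR, ALDH, UGT or SULT followed by a digit, which gave 67 of 19960 genes: 13 AKR, 19 ALDH, 22 UGT and 13 SULT. RNA was sequenced from MKN28 cells, a long-used human line from a gastric adenocarcinoma. The first group held a plasmid with a short hairpin RNA against LTBP1 (shLTBP1), and the second a plasmid with a scrambled hairpin (shSCR), with 3 libraries each, all from stably expressing cells in the same serum-containing medium. Whether each stable line was a pool or 1 clone, and whether replicates were grown separately, the labels do not say. The p-values therefore cover only library-to-library spread, and that spread may be technical.

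Aldo-keto reductases use NADPH to turn aldehydes and ketones, among them sugars, steroids and prostaglandins, into alcohols. Aldehyde dehydrogenases use NAD or NADP to oxidise aldehydes to acids, in alcohol and lipid breakdown, in retinoic acid synthesis and in amino acid metabolism. UGT and SULT enzymes conjugate the products, with glucuronic acid from UDP-glucuronate or with sulfate from PAPS (3′-phosphoadenosine 5′-phosphosulfate), which makes them water-soluble. Liver and gut epithelium are the best known sites of these reactions.

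LTBP1, a latent TGF-beta binding protein and the target of the hairpin, stood at 59.0, 66.7 and 49.0 normalized read counts in the shLTBP1 libraries and at 977, 964 and 1011 in the shSCR libraries. The shLTBP1 mean was 5.92% of the shSCR mean, and an exact two-sided permutation test gave p = 0.1, the smallest possible with 3 libraries against 3. Library totals of the normalized values ran from 30479879 to 30941103. KRT8, KRT18, KRT19 and CDH1 led the 15 gastric epithelial markers. The 15 markers summed to 269627 to 294349 in shLTBP1 and 308721 to 329831 in shSCR. Among them CLDN18, GKN1, GKN2, MUC6 and TFF2 were listed at 0 in every library, and TFF1, MUC5AC, PGC and VIL1 did not exceed 2.87. Of the 6 tested gastric markers 2 were called higher and 3 lower: EPCAM stood at 9752, 10516 and 9673 in shLTBP1 and 21565, 22703 and 20770 in shSCR, while KRT19 and CDX2 were higher in every shLTBP1 library. The 14 hepatocyte markers, 4 of them at 0 in every library, summed to 15.4 to 42.9 in shLTBP1 and 17.7 to 31.0 in shSCR. The shSCR library of replicate 3 stood apart in globin genes, with 803 for HBA1 and 132 for HBB. Summed fibroblast markers, led by COL1A1 with THY1 at 0, were 710 to 938 in shLTBP1 and 1108 to 1348 in shSCR, while LUM went against the sum, with 41.5, 52.0 and 36.6 in shLTBP1, and was listed at 0 in all shSCR libraries. Summed endothelial markers, led by EGFL7 with CLDN5 and ERG at 0, were 1949 to 2111 in shLTBP1 and 1748 to 1824 in shSCR. Summed blood cell markers were 629 to 745 in shLTBP1 and 346 to 1325 in shSCR, where the highest value is that of the library with globin. CD68, their leading marker, stood at 689, 713 and 605 in shLTBP1 and 340, 376 and 382 in shSCR. The part of the marker genes in any result was not tested.

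Of the 67 genes, 27 reached a mean of at least 10 over the 6 libraries and were tested. In shLTBP1, 16 of them were higher and 4 lower at a limma adjusted p under 0.05, while 7 did not pass. The shares were 59.3% higher and 14.8% lower of these 27 genes, and 26.3% higher and 26.8% lower of all 12789 genes tested, of which 53.1% were called in either direction. In 15 of the 27 genes every shLTBP1 value lay above every shSCR value and in 5 every one lay below, shares that were 30.2% and 30.6% over all genes tested (60.8% in either direction). At least a 2-fold change was called for 4 genes higher and 1 lower, where 8.92% of all genes tested passed that rule in either direction. The median log2 fold change was 0.40 over the 27 genes and 0.00376 over all genes tested. Fold changes throughout are on the log2(value + 1) scale, shLTBP1 minus shSCR, which understates the change of low genes, and SE is their standard error from limma. AKR1B1, AKR7A3 and UGT1A6 had shSCR means under 10 and passed the filter through their shLTBP1 values. Among the 18 genes of the families with a mean of at least 100, 13 were higher and 4 lower, where 27.3% and 28.6% of all genes of that level were called. These shares are descriptions of gene lists and carry no test. In bulk RNA, fewer cells that express a gene and less of its RNA per cell cannot be told apart.

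**Figure D1:**
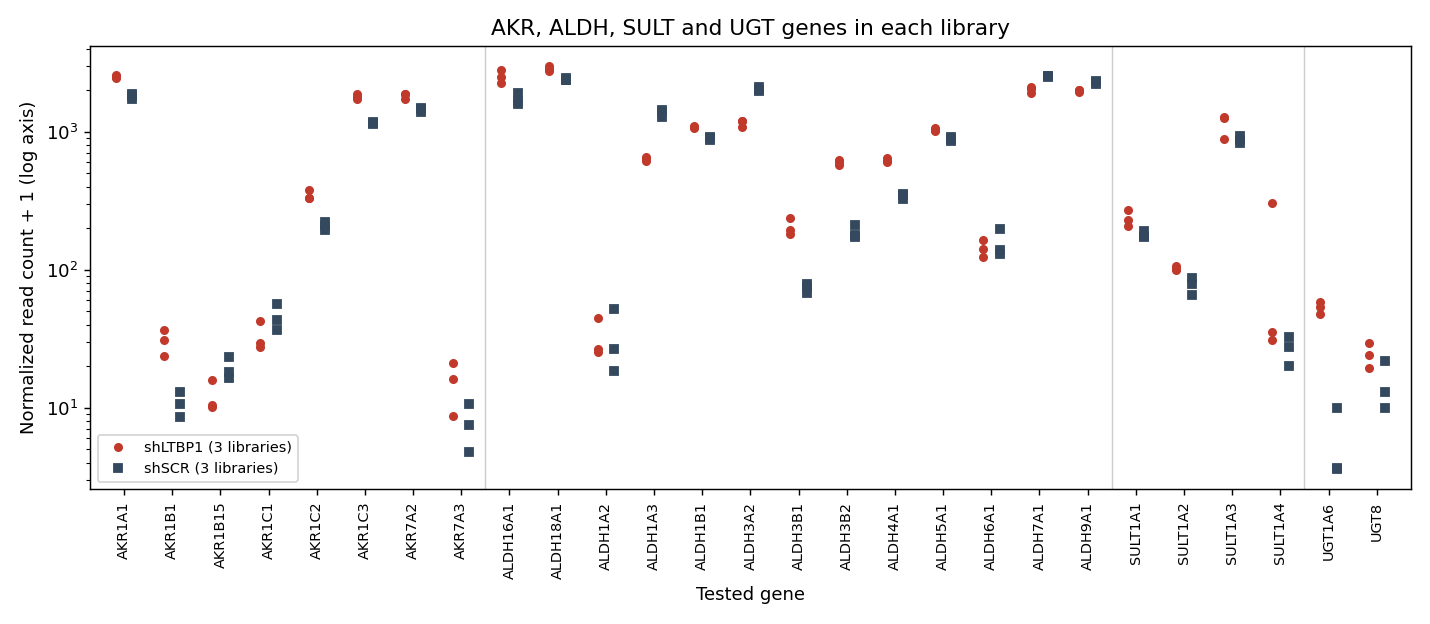
Normalized read count plus 1 on a log axis for each of the 27 tested genes, grouped by family, with 3 shLTBP1 libraries (circles) left of 3 shSCR libraries (squares). The shLTBP1 points of ALDH3B1, ALDH3B2, ALDH4A1 and UGT1A6 lie above all shSCR points, those of ALDH1A3 and ALDH3A2 lie below them, and SULT1A4 has 1 shLTBP1 point at 301 far above the others.

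The aldo-keto reductases with the highest levels, AKR1A1, AKR7A2, AKR1C3 and AKR1C2, all rose. Of 8 tested AKR genes 5 rose, none fell and 3 did not pass. The shares were 62.5% higher and 0% lower, against 26.3% and 26.8% of all genes tested. AKR1A1, the general aldehyde reductase that also reduces glucuronate (ENSG00000117448, on chromosome 1 of hg38, plus strand, 45550543 to 45570049), had the highest mean of the family. Its values were 2491, 2568 and 2425 in shLTBP1 and 1824, 1858 and 1731 in shSCR. The groups did not overlap, and the log2 fold change was 0.47 (SE 0.05; limma adjusted p = 4.94e-05). AKR7A2, which reduces succinic semialdehyde and the dialdehyde of aflatoxin, averaged 1832 ± 83.9 in shLTBP1 and 1436 ± 47.1 in shSCR (SD, n = 3 each; limma adjusted p = 0.000631).

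The AKR1C genes reduce steroid hormones and prostaglandins and lie side by side on chromosome 10. AKR1C3, which makes testosterone from androstenedione and also prostaglandin F2-alpha (ENSG00000196139, plus strand from 5035354 to 5107686), stood at 1725, 1792 and 1867 in shLTBP1 and 1135, 1178 and 1153 in shSCR. All shLTBP1 libraries were higher, by a log2 fold change of 0.63 (SE 0.06; limma adjusted p = 9.11e-06). AKR1C2, which inactivates dihydrotestosterone (ENSG00000151632, minus strand from 4987400 to 5018031), stood at 328, 376 and 329.7 in shLTBP1 and 207, 193 and 219 in shSCR. It was higher by 0.74 (SE 0.10; limma adjusted p = 0.000199). AKR1C1, which inactivates progesterone, had means of 32.2 ± 8.25 in shLTBP1 and 44.7 ± 10.1 in shSCR (SD, n = 3 each), with overlapping groups and a limma adjusted p of 0.165.

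How reads were divided among the AKR1C genes is uncertain, because they share sequence. Of the distinct 50-base words in the longest coding AKR1C2 transcript of GENCODE release 29, 52.2% also stand in a transcript of another gene, with 50.8% in AKR1C1. For AKR1C3 the share was 12.1%. With AKR1C1 to AKR1C4 summed into 1 feature, an alternative chosen after seeing the data, the values were 2080, 2210.0 and 2225 in shLTBP1 and 1379, 1427 and 1414 in shSCR. The sum was higher by 0.63 on the log2 scale (limma adjusted p = 7.3e-06).

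AKR1B1, the aldose reductase that turns glucose into sorbitol (ENSG00000085662, chromosome 7, minus strand, 134442350 to 134459284), was low in both groups. It had 22.6, 35.7 and 29.96 in shLTBP1 and 11.99, 9.69 and 7.58 in shSCR. The groups did not overlap, and the log2 fold change was 1.497 (SE 0.34; limma adjusted p = 0.00419). Its neighbour AKR1B15 went the other way without passing, with 9.21, 14.9 and 9.51 in shLTBP1 and 22.2, 17.2 and 15.6 in shSCR (limma adjusted p = 0.138, and 0.0424 when variances were moderated without a trend). AKR1B10, a reductase of retinal and lipid aldehydes that many gastrointestinal tumours express, was below the filter, with 8.79 to 10.1 in shLTBP1 and 6.42 to 12.3 in shSCR. AKR7A3 had 7.76, 15.1 and 20.1 in shLTBP1 and 9.58, 3.76 and 6.46 in shSCR, and did not pass (limma adjusted p = 0.126).

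The aldehyde dehydrogenases moved in both directions. Of 13 tested ALDH genes, 7 rose, 4 fell and 2 did not pass. The shares were 53.8% higher and 30.8% lower, against 26.3% and 26.8% of all genes tested. With the median of the 25 nearest tested genes on either side subtracted, 5 were higher and 5 lower. The rises with the largest fold changes were those of ALDH3B1 and ALDH3B2, and the largest falls those of ALDH1A3 and ALDH3A2.

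ALDH3B1 and ALDH3B2 oxidise medium and long-chain fatty aldehydes that form when membrane lipids are oxidised. ALDH3B2 (ENSG00000132746, chromosome 11, minus strand, 67662162 to 67681200) stood at 617, 571 and 598 in shLTBP1 and 177, 209.5 and 172 in shSCR. It was higher by a log2 fold change of 1.68 (SE 0.10; limma adjusted p = 7.84e-07), and its shLTBP1 mean was 3.20 times its shSCR mean. ALDH3B1 (ENSG00000006534, plus strand from 68008578 to 68029282) stood at 192, 235 and 179 in shLTBP1 and 77.2, 74.1 and 66.6 in shSCR. All shLTBP1 values lay above all shSCR values, with a log2 fold change of 1.46 (SE 0.15; limma adjusted p = 2.36e-05). The starts of this gene pair lie 346 kilobases apart, with 1 other tested gene between them, which was also called higher at 0.57. Around each of them, the 25 nearest tested genes on either side had a median log2 fold change of 0.19. Only 1.35% of the 50-base words of ALDH3B2 stand in another gene.

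ALDH3A2, the fatty aldehyde dehydrogenase of the endoplasmic reticulum, moved against these relatives (ENSG00000072210, chromosome 17, plus strand, 19648136 to 19677598). It had 1190, 1083 and 1194 in shLTBP1 and 2111, 1953 and 1991 in shSCR. Every shLTBP1 library was lower, with a log2 fold change of -0.80 (SE 0.06; limma adjusted p = 3.78e-06). In level per kilobase of transcript ALDH3A2 stayed the highest of the 3 ALDH3 genes tested, at 322 in shLTBP1 and 563 in shSCR, against 232 and 72.7 for ALDH3B2.

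ALDH1A3, which oxidises retinal to retinoic acid, fell in every shLTBP1 library (ENSG00000184254, chromosome 15, plus strand, 100877714 to 100916626). Its values were 637, 651 and 608 in shLTBP1 and 1426, 1391 and 1269 in shSCR. The shLTBP1 mean was 0.464 times the shSCR mean, a log2 fold change of -1.11 (SE 0.07; limma adjusted p = 9.4e-07). The other retinal dehydrogenases were low. ALDH1A2 averaged 31.3 ± 11.005 in shLTBP1 and 31.5 ± 17.7 in shSCR (SD, n = 3 each; limma adjusted p = 0.882), and ALDH1A1 did not exceed 3.17 in shLTBP1 or 0.591 in shSCR. Per kilobase of transcript ALDH1A3 stood at 204 in shLTBP1 and 439 in shSCR, and ALDH1A2 at 9.50 in shLTBP1 and 9.55 in shSCR. The 250 bases before its start in the RefSeq promoter table (GRCh38.p14, plus strand, chr15:100879581-100879830) are printed because it is the member with the largest called fall, and capitals mark the letters GCGTG or CACGC, the core that the aryl hydrocarbon receptor binds:
ALDH1A3: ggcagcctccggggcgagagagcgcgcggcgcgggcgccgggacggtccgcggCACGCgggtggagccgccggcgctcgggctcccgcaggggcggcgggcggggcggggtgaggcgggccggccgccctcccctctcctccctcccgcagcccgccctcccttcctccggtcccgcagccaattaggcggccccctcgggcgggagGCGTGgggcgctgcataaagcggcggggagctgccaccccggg

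The aldehyde dehydrogenases of amino acid metabolism are mostly mitochondrial. Of the 6 tested, ALDH4A1, ALDH18A1 and ALDH5A1 rose, ALDH7A1 and ALDH9A1 fell and ALDH6A1 did not pass. ALDH4A1, which completes proline breakdown by turning pyrroline-5-carboxylate into glutamate (ENSG00000159423, chromosome 1, minus strand, 18871430 to 18902781), had the largest rise of these. It stood at 601, 641 and 607 in shLTBP1 and 327, 346 and 353 in shSCR, with no overlap, a log2 fold change of 0.85 (SE 0.08; limma adjusted p = 1.09e-05). Of its 50-base words 42.8% also stand in an overlapping annotated gene, AL080251.1, so the division of reads is uncertain. ALDH18A1, which makes pyrroline-5-carboxylate for proline synthesis (ENSG00000059573, chromosome 10, minus strand, 95605929 to 95656706), had the highest mean value of the ALDH family. Its values were 2983, 2819 and 2770 in shLTBP1 and 2361, 2462 and 2346 in shSCR, a log2 fold change of 0.26 (SE 0.05; limma adjusted p = 0.00197).

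ALDH5A1, the succinic semialdehyde dehydrogenase of GABA breakdown, averaged 1038 ± 28.7 in shLTBP1 and 888 ± 31.2 in shSCR (SD, n = 3 each; limma adjusted p = 0.0109). With the median of its chromosomal neighbours subtracted its log2 fold change was 0.0987, with a limma adjusted p of 0.235. ALDH7A1, an enzyme of lysine breakdown, averaged 2029 ± 104 in shLTBP1 and 2514 ± 34.7 in shSCR (limma adjusted p = 0.000884). ALDH9A1, which acts in carnitine synthesis, stood at -0.197 on the log2 scale (limma adjusted p = 0.00707). Both fell in all shLTBP1 libraries. ALDH6A1, of valine breakdown, had overlapping groups at 142 ± 20.01 in shLTBP1 and 155 ± 36.7 in shSCR (SD, n = 3 each; limma adjusted p = 0.64).

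ALDH16A1, whose mammalian form lacks the catalytic cysteine of the family (ENSG00000161618, chromosome 19, plus strand, 49453169 to 49471048), had 2259, 2790 and 2471 in shLTBP1 and 1584, 1667 and 1892 in shSCR. It was higher by 0.55 (SE 0.09; limma adjusted p = 0.000576). ALDH1B1, a mitochondrial enzyme close to ALDH2 (chromosome 9 from 38392664 to 38398661), averaged 1081 ± 22.6 in shLTBP1 and 891 ± 24.1 in shSCR (SD, n = 3 each). It was called higher, at 0.28 (limma adjusted p = 0.00277), but its neighbours stood at a median of 0.73. With their median subtracted it was lower, at -0.42 (limma adjusted p = 0.000279). ALDH2 itself, the main acetaldehyde dehydrogenase of most tissues, was nearly silent, with 2.96, 4.06 and 3.23 in shLTBP1 and 1.46, 0 and 0 in shSCR.

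**Figure D2:**
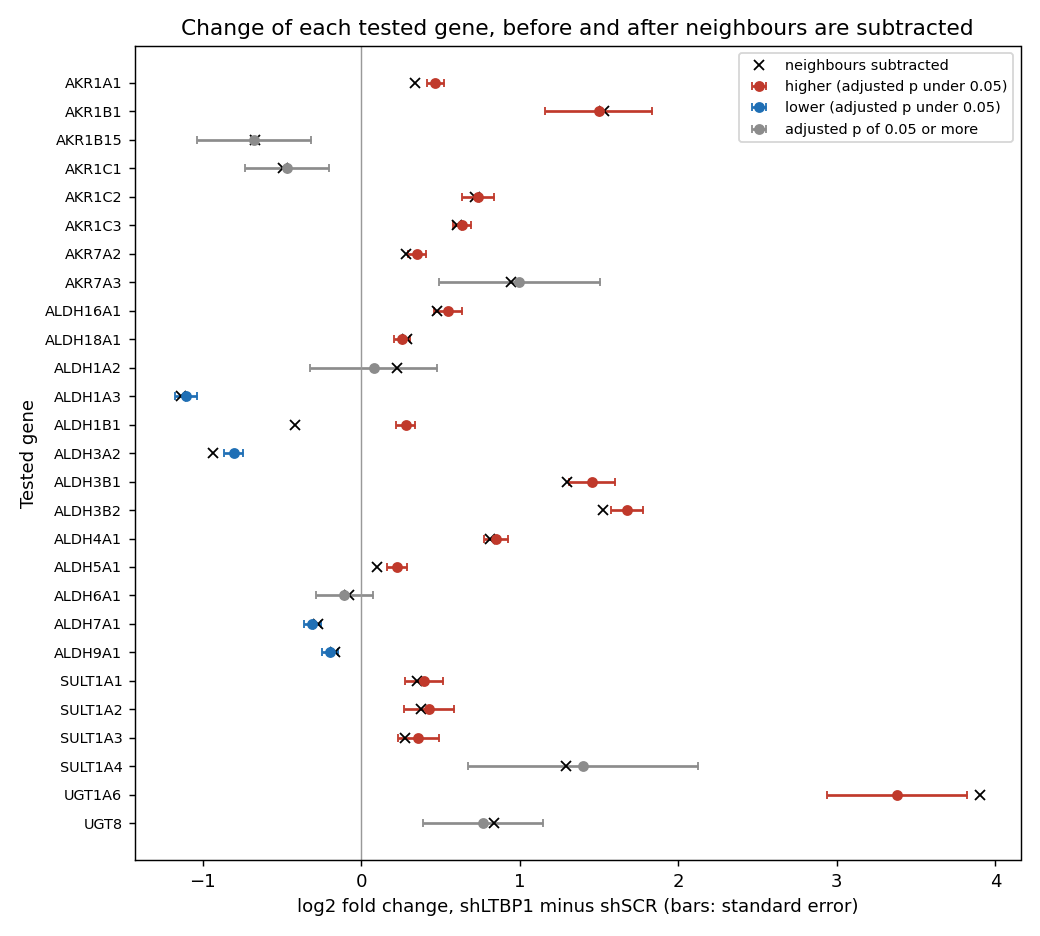
Log2 fold change (shLTBP1 minus shSCR) of the 27 tested genes with standard errors from limma, coloured by call, and as crosses the same value after the median of 25 tested neighbours on each side was subtracted. The cross of ALDH1B1 lies at -0.42, across 0 from its point at 0.28, and that of UGT1A6 lies farther right, at 3.90.

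Most glucuronosyltransferases were silent in both groups. Of 22 UGT genes, 12 were listed at 0 in all 6 libraries, among them 7 UGT2B genes, and only UGT1A6 and UGT8 reached the filter. UGT1A6, which glucuronidates small planar phenols (ENSG00000167165, chromosome 2, plus strand, 233691607 to 233773300), had the largest fold change of the 27 tested genes. It stood at 52.4, 57.0 and 46.7 in shLTBP1 and 8.93, 2.65 and 2.62 in shSCR. The groups were far apart, with a log2 fold change of 3.38 (SE 0.44; limma adjusted p = 0.000139). Chromosome 2 as a whole was lower in shLTBP1, with a median of -0.56 over 852 tested genes, and the neighbours of UGT1A6 stood at -0.52. With their median subtracted the log2 fold change of UGT1A6 was 3.90. UGT8, which makes galactosylceramide, had 23.2, 18.3 and 28.2 in shLTBP1 and 11.9, 8.91 and 20.7 in shSCR. It did not pass (limma adjusted p = 0.114), but did without shSCR replicate 3 (log2 fold change 1.08, limma adjusted p = 0.0415).

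The UGT1A genes are alternative first exons joined to the same later exons, so a read from the shared part names no single gene. The stretches below, from GENCODE release 29 on GRCh38, show the first 60 coding bases of UGT1A6 (chr2:233693005-233693064) and of UGT1A7 (chr2:233681938-233681997), each found in 1 of the 9 UGT1A genes of the table. Both lie on the plus strand, are shown because they tell these genes apart, and have the start codon in capitals:
UGT1A6 start: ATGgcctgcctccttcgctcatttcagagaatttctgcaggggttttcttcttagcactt
UGT1A7 start: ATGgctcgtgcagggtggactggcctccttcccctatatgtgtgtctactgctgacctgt

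In the longest UGT1A6 coding transcript 59.1% of 50-base words stand in another gene, and in that of UGT1A7 66.4%. UGT1A7, a neighbouring form known in the upper digestive tract, was below the filter with 25.1, 7.04 and 14.7 in shLTBP1, and was listed at 0 in all shSCR libraries. UGT1A10 had 3.70, 4.57 and 8.08 in shLTBP1 and 0, 5.39 and 1.75 in shSCR. With all 9 genes summed, an alternative chosen after seeing the data, the locus had 84.4, 73.7 and 71.3 in shLTBP1 and 8.93, 8.04 and 8.17 in shSCR. Every shSCR sum lay under 10, so the sum, like UGT1A6, passed the filter through its shLTBP1 values. The sum was more even among shSCR libraries than UGT1A6 alone, and higher in shLTBP1 by a log2 fold change of 3.04 (SE 0.24; limma adjusted p = 5.37e-06).

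UGT1A6 has 2 starts in the RefSeq promoter table (GRCh38.p14, plus strand). The 250 bases before each are shown because its fold change was the largest among the tested genes. Capitals mark GCGTG before the first start (chr2:233691452-233691701), and before the second start (chr2:233692640-233692889) the letters TGACNNNGC, the core of the antioxidant response element that NRF2 binds:
UGT1A6 first start: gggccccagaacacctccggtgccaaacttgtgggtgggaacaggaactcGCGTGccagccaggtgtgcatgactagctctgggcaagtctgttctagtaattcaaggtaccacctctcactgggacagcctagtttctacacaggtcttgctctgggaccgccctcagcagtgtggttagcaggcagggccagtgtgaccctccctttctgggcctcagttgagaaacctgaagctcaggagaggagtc
UGT1A6 second start: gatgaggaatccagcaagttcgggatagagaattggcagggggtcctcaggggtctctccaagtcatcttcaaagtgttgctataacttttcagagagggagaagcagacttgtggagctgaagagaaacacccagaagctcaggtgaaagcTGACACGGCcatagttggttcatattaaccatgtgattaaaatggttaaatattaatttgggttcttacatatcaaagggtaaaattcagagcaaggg

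Both cores were searched on both strands in the 250 bases before each start. GCGTG stood in 32.2% of all 35116 promoters of the table and in 37.5% of the 32 promoters of tested family genes, of which 22 of 27 had an entry. TGACNNNGC stood in 10.9% of all promoters and in 9.38% of those 32, which belong to AKR7A2 and UGT1A6. Some genes, AKR7A2 among them, have several starts whose windows overlap and are counted separately. Counted by gene, GCGTG stood before 9 of the 22 and TGACNNNGC before 2. These matches are descriptions of letters in a window.

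The sulfotransferases with measurable RNA were the SULT1A genes, which conjugate phenols and catecholamines. Of 4 tested, 3 were called higher, each close to the threshold. SULT1A3, the catecholamine sulfotransferase (ENSG00000261052, chromosome 16, plus strand, 30199228 to 30204310), had the highest mean of the family, with 1249, 1273 and 880 in shLTBP1 and 931, 865 and 824 in shSCR. Its groups overlapped at shLTBP1 replicate 3 (log2 fold change 0.36, SE 0.13; limma adjusted p = 0.0394). SULT1A4, its copy on the same chromosome from 29459889 to 29464976, had 29.999, 34.4 and 301 in shLTBP1 and 31.4, 19.1 and 26.7 in shSCR, and did not pass (limma adjusted p = 0.132). Its log2 fold change was 1.40, and 0.34 without shLTBP1 replicate 3. The shLTBP1 library that was low for SULT1A3 was thus high for SULT1A4. In SULT1A4 99.0% of 50-base words stand in another gene, nearly all in SULT1A3. In SULT1A3 98.6% do, with 96.7% in the annotated gene SLX1A-SULT1A3. The sum of SULT1A3 and SULT1A4 leaves that gene out, so the division of reads with it remains uncertain.

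Summed, SULT1A3 and SULT1A4 had 1279, 1307 and 1181 in shLTBP1 and 962, 884 and 851 in shSCR, with no overlap. The sum was higher by a log2 fold change of 0.48 (SE 0.07; limma adjusted p = 0.000284), and it remained so without any 1 library, with limma adjusted p up to 0.002. SULT1A1 averaged 235 ± 31.6 in shLTBP1 and 178 ± 9.19 in shSCR, and SULT1A2 averaged 102 ± 3.40 in shLTBP1 and 75.9 ± 10.5 in shSCR (SD, n = 3 each; limma adjusted p = 0.0206 and 0.0417). SULT1A1 lost its call without any 1 of shLTBP1 replicate 1 and shSCR replicates 1 and 3 (limma adjusted p = 0.0595 to 0.0813). SULT1A2 lost it without any 1 of the 3 shLTBP1 replicates and shSCR replicates 2 and 3 (limma adjusted p = 0.0699 to 0.137). SULT1A3 lost it without any 1 of shLTBP1 replicates 1 and 2 and the 3 shSCR replicates (limma adjusted p = 0.0516 to 0.134). With neighbours subtracted SULT1A2 and SULT1A3 also lost it (limma adjusted p = 0.0787 and 0.0868).

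**Figure D3:**
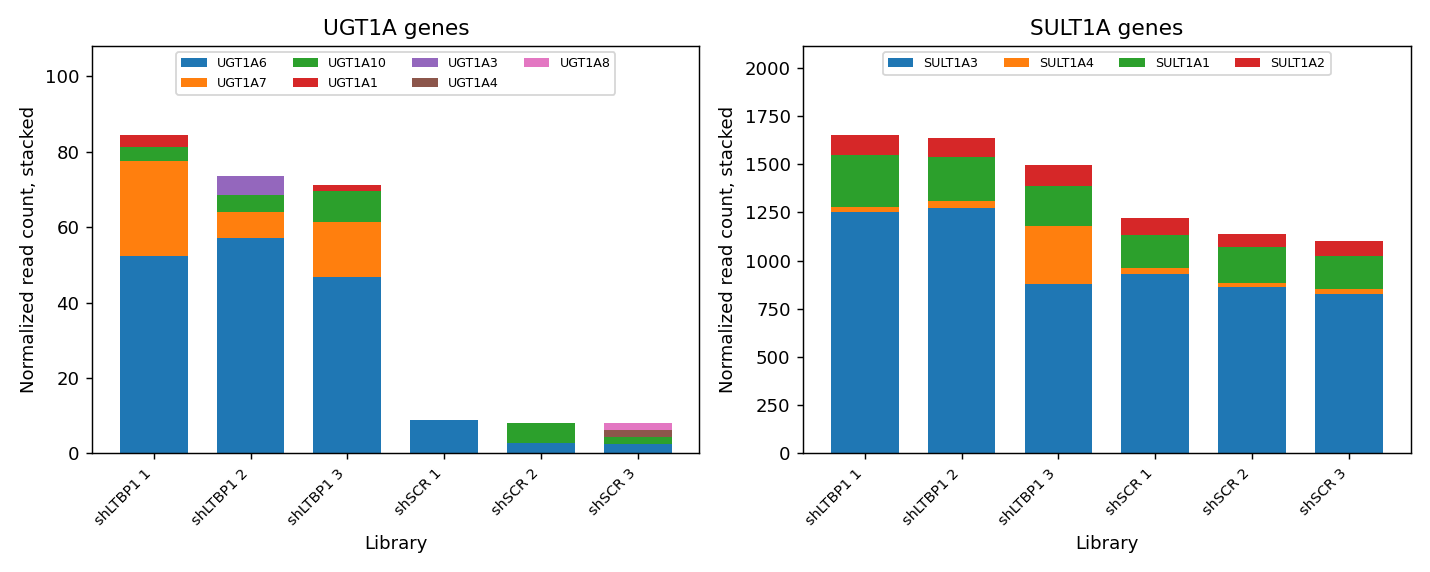
Stacked normalized read counts per library of the UGT1A genes with a value above 0 (left) and of the 4 SULT1A genes (right), shLTBP1 libraries left of shSCR libraries. The UGT1A stacks reach 71.3 to 84.4 in shLTBP1 and 8.04 to 8.93 in shSCR. In shLTBP1 replicate 3 SULT1A3, at 880, is lower and SULT1A4, at 301, higher than in the other shLTBP1 libraries.

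The remaining 40 genes of the families were below the filter, and 20 of them were listed at 0 in every library: 12 UGT, 6 SULT, 1 ALDH and 1 AKR. The last are ALDH3A1, a corneal and stomach aldehyde dehydrogenase, and AKR1E2. SULT2B1, which sulfates cholesterol and marks epidermal differentiation, had 15.6, 8.54 and 8.77 in shLTBP1 and 4.06, 4.62 and 1.55 in shSCR. ALDH8A1, an enzyme of the kynurenine route, had 6.16, 27.6 and 4.67 in shLTBP1 and 3.94, 2.54 and 3.47 in shSCR. In both genes all shLTBP1 values lay above all shSCR values. ALDH1L1 and ALDH1L2, which oxidise formyl-tetrahydrofolate, and SULT1B1 overlapped between groups and did not exceed 13.4. In level per kilobase of transcript AKR1A1 led the families in both groups, at 1975 in shLTBP1 and 1429 in shSCR. It was followed in shLTBP1 by AKR7A2 at 1345 and AKR1C3 at 1278, and in shSCR by ALDH7A1 at 1078 and AKR7A2 at 1054.

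The genes named with the enzymes below come from lists of related genes. Over all 202 tested genes of these lists 31.7% were called higher and 34.2% lower, against 26.3% and 26.8% of all genes tested, and each list's count reads against those shares. Of 13 tested genes for UDP-glucuronate and PAPS supply, 2 rose and 6 fell, and with neighbours subtracted 4 were higher and 5 lower. PAPSS1, which makes PAPS, had 1036, 1018 and 1047 in shLTBP1 and 1941, 1901 and 1881 in shSCR (log2 fold change -0.88, limma adjusted p = 7.28e-07). PAPSS2, its relative, was below the filter with 0, 2.66 and 3.72 in shLTBP1 and 5.04, 16.5 and 13.9 in shSCR. UGDH, which makes UDP-glucuronate, averaged 1937 ± 72.7 in shLTBP1 and 2741 ± 47.3 in shSCR (SD, n = 3 each; log2 fold change -0.50, limma adjusted p = 2.38e-05). UGP2, the step before it, was called lower at -0.45, but it lies on chromosome 2 and stood at 0.15 (limma adjusted p = 0.0171) with its neighbours subtracted. The sulfate transporter SLC26A11 rose by 1.11. SLC35B3, a PAPS transporter, was at 0.22 and lost its call with neighbours subtracted (limma adjusted p = 0.0821) and without any 1 of shLTBP1 replicates 1 and 2 and the 3 shSCR replicates (limma adjusted p = 0.0925 to 0.133).

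Of 27 tested partners in one-carbon and amino acid metabolism, 6 rose and 12 fell, with a median of -0.18. With neighbours subtracted 5 were higher and 9 lower, with a median of -0.048. PRODH, the proline dehydrogenase that acts just before ALDH4A1, averaged 910 ± 39.6 in shLTBP1 and 627 ± 73.8 in shSCR (SD, n = 3 each; log2 fold change 0.54, limma adjusted p = 0.000708). PYCR3, which makes proline from pyrroline-5-carboxylate, rose by 0.41 (0.24 with neighbours subtracted), and PYCR1, which does so in mitochondria, did not pass at 0.08. OAT, which links ornithine to the same intermediate, fell, with 2522, 2764 and 2572 in shLTBP1 and 5150, 4917 and 4828 in shSCR. ABAT, the GABA transaminase that acts before ALDH5A1, averaged 246 ± 28.5 in shLTBP1 and 1131 ± 35.9 in shSCR (SD, n = 3 each; log2 fold change -2.20, limma adjusted p = 8.74e-08). It had the largest fall of this list, before ACADSB at -1.22, an enzyme of branched-chain amino acid breakdown.

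Of 18 tested genes of retinoid metabolism and response, 5 rose and 6 fell. RDH10, which forms retinal, the substrate of ALDH1A3, was lower at -0.53, and RDH11 was lower at -0.39. CYP26B1, which breaks down retinoic acid and is induced by it, was low, with 10.2, 7.48 and 2.80 in shLTBP1 and 36.5, 20.5 and 33.4 in shSCR (log2 fold change -2.09, and -1.49 with its chromosome 2 neighbours subtracted), and passed the filter through its shSCR values. BCO2, which cleaves carotenoids, was at -0.85 and lost its call without any 1 of shLTBP1 replicates 2 and 3 and shSCR replicates 1 and 3 (limma adjusted p = 0.0826 to 0.166). The retinoic acid target PLAAT4 rose by 1.56 (1.18 to 1.75 with 1 library left out at a time). FABP5, a carrier of fatty acids and retinoic acid, rose by 1.19, and the receptor RXRA by 0.63. CRABP2, which carries retinoic acid to the nucleus, was at 0.195 and lost its call with neighbours subtracted (limma adjusted p = 0.125) and without any 1 of shLTBP1 replicates 1 and 2 and shSCR replicates 1 and 2 (limma adjusted p = 0.077 to 0.0973).

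The aryl hydrocarbon receptor (AHR) and NRF2 induce several of these enzymes, UGT1A6 among them. Of 11 tested AHR regulators and targets 5 rose and 4 fell. CYP1A1, the classic AHR target, had 1819, 1695 and 1948 in shLTBP1 and 538, 564 and 483 in shSCR (log2 fold change 1.78, limma adjusted p = 1.37e-07). CYP1B1 rose by 0.52, and by 1.15 with its chromosome 2 neighbours subtracted, while TIPARP, another AHR target, fell by 0.47, with -0.97 once its neighbours were subtracted. AHRR, the repressor of the receptor, was at -2.30 and lost its call with neighbours subtracted (limma adjusted p = 0.211) and without any 1 of shLTBP1 replicates 1 and 2 and shSCR replicates 1 and 3 (limma adjusted p = 0.0847 to 0.0973). AHR was at 0.27 and lost its call without any 1 of shLTBP1 replicates 1 and 3 and the 3 shSCR replicates (limma adjusted p = 0.0538 to 0.166). Of 42 tested NRF2 regulators and targets, 17 rose and 15 fell, with a median of 0.0103. HMOX1, a heme oxygenase, rose by 1.34 and GPX2, a glutathione peroxidase of gut epithelium, fell by 2.23. The taurine transporter SLC6A6 rose by 1.38. Among the pumps that export conjugates, ABCC3 rose by 1.29, while ABCC2 stood at -1.15 and ABCC4 at -1.001, both called lower. NQO1, a target of both factors, rose by 0.195 (limma adjusted p = 0.00334). NFE2L2, the gene of NRF2, was called lower at -0.57, and stood at 0.02 (limma adjusted p = 0.761) with its chromosome 2 neighbours subtracted.

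**Figure D4:**
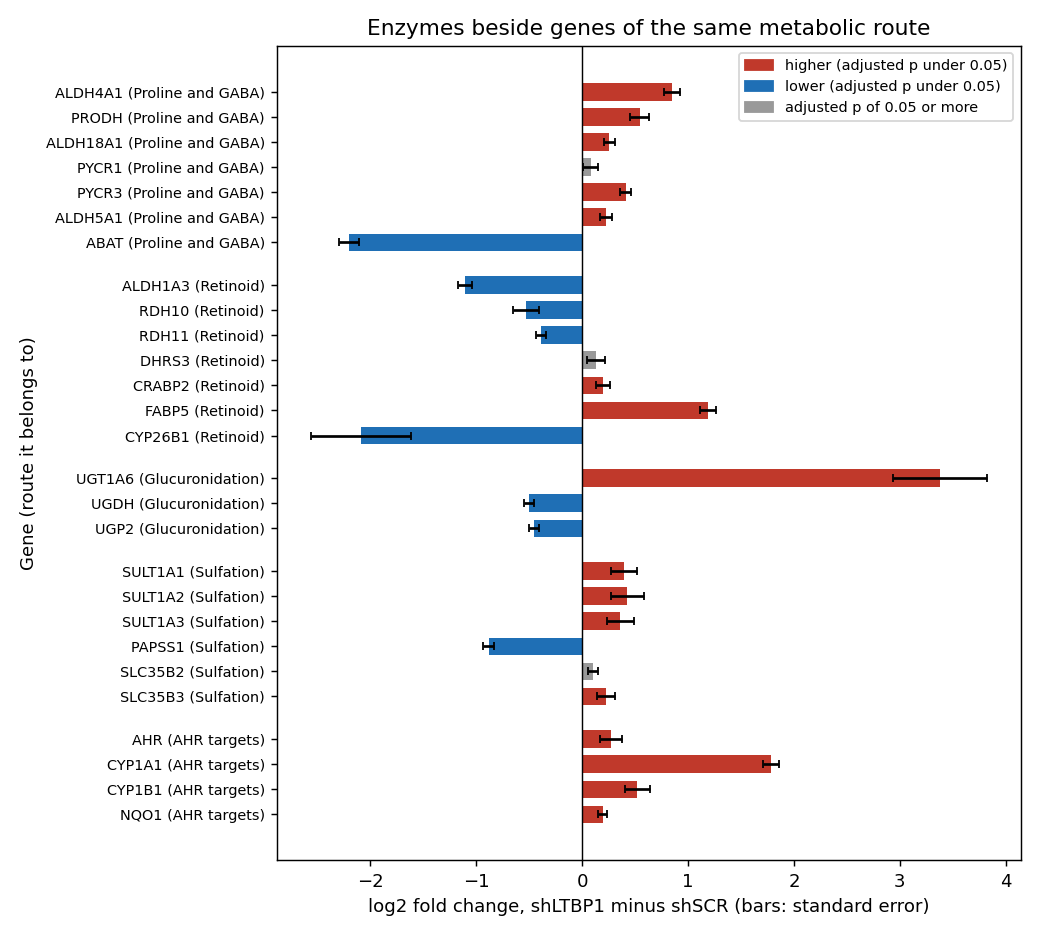
Log2 fold change (shLTBP1 minus shSCR, bars with standard errors from limma) of family genes beside genes of the same route, coloured by call. CYP1A1 at 1.78 and UGT1A6 at 3.38 point right, while ABAT at -2.20, PAPSS1 at -0.88 and ALDH1A3 at -1.11 point left. The genes drawn are a selection. For AHR only AHR, CYP1A1, CYP1B1 and NQO1 are drawn, all called higher. The full AHR list of 11 tested genes had 5 higher and 4 lower, among the latter TIPARP at -0.47.

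Other lists held changes in both directions. Of 45 tested oxidation and carbonyl reduction genes outside the 4 families, 18 rose and 13 fell. The steroid and fatty acid dehydrogenase HSD17B10 rose by 0.88, and the drug-oxidising CYP3A5 fell by 1.38. XDH, the xanthine dehydrogenase, stood at -1.44, and at -0.85 with its chromosome 2 neighbours subtracted. CBR1, a carbonyl reductase, was called lower at -0.59 but not with neighbours subtracted (-0.14, limma adjusted p = 0.123). HSD17B6, a steroid dehydrogenase, was at 0.94 and lost its call without any 1 of shLTBP1 replicates 1 and 2 and shSCR replicate 1 (limma adjusted p = 0.0566 to 0.0821).

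Of 23 tested other conjugation genes 8 rose and 7 fell. The glutathione transferase GSTM3 stood at 1.31. BAAT, which joins bile acids to amino acids, stood at 1.20 (1.09 to 1.37 with 1 library left out at a time). GSTA4, which conjugates the lipid aldehyde hydroxynonenal, was at 0.54 and lost its call without shLTBP1 replicate 2 (limma adjusted p = 0.0512). The sulfatases SULF2 and ARSB stood at -1.41 and -0.85, and the histamine methyltransferase HNMT at -0.90 (-0.30 with its chromosome 2 neighbours subtracted). Of 15 tested genes listed under polyol, methylglyoxal and lipid aldehyde handling 3 rose and 8 fell. The name of this list need not describe every gene on it, FDXR among them. HAGH, of the glyoxalase route, rose by 0.67, while KHK, the fructokinase, fell by 1.16 (-0.62 with its chromosome 2 neighbours subtracted), ESD by 0.53 and FDXR by 0.39. SORD, which acts on the sorbitol that AKR1B1 forms, stood at -0.27. AIFM2, a quinone reductase, was at 0.20 and lost its call with neighbours subtracted (limma adjusted p = 0.0689) and without any 1 of shLTBP1 replicate 1 and shSCR replicate 1 (limma adjusted p = 0.0616 and 0.0853).

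Of 10 tested genes of steroid synthesis, cleavage and transport, 3 rose and 4 fell. HSD17B1, which makes estradiol, rose by 0.85, and HSD11B2, which inactivates cortisol, by 0.78. STS, the steroid sulfatase that reverses SULT action on steroids, was at 0.21 and lost its call without shSCR replicate 3 (limma adjusted p = 0.0652). The organic anion transporters SLCO1B3 and SLCO1A2 fell by 3.67 and 1.11. With 1 library left out at a time SLCO1A2 ran from -1.30 to -0.78. SRD5A1, a steroid reductase, fell by 1.24 (-0.45 with its neighbours on chromosome 5 subtracted). Of 18 tested nuclear receptors and liver or intestinal factors 5 rose and 4 fell. CEBPA stood at 1.06, CDX2 at 0.96 and PPARD at 0.84, against RORA at -0.67. FOXA3 was at -1.16 and lost its call without shSCR replicate 1 (limma adjusted p = 0.0514).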

How the data were processed

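RNA of MKN28 cells was sequenced from 3 shLTBP1 and 3 shSCR libraries. Per the labels the library kit keeps strand. Titles gave each sample's group and replicate number. The tools, per the submitters' processing notes, were RSEM 1.3.1, STAR 2.7.3a, FastQC 0.10.1 and DESeq2, and the build hg38. Annotation, strand setting and filters were not found in the sources used here, so overlapping and antisense genes remain uncertain. The table the authors deposited gives each gene a signal: the authors' DESeq2-normalized read counts, going by the deposited table's own name, with decimals. Of low values under 20, 34.6% to 36.8% were whole multiples, within 0.1, of the commonest value near 1, so reads were not recovered, no count test was run, and the sequenced depth is unknown.

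limma 3.58.1 in R 4.3.3 was fitted to log2(value + 1) for genes averaging 10 or more, with group as the only term and a mean-dependent trend (4 residual and 5.60 prior degrees of freedom). Two-sided p-values had Benjamini-Hochberg adjustment across the 12789 genes, and the threshold was 0.05. The fit was tested on simulated data. Alternatives were other pseudocounts (0.5, 5), other filters (none, or a mean of 50), 3 scalings, other variance moderation, the replicate block, each library left out, and per library the median of 25 tested neighbours on each side subtracted. Sums of near-identical genes were added after seeing the data.

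Positions, transcript lengths (median of basic coding transcripts) and shared 50-base words (the longest coding transcript of each gene, against all transcripts of other genes) come from GENCODE release 29, where 19872 of 19960 identifiers matched. Promoters are from RefSeq (GRCh38.p14), where 52 of 67 genes matched. The family genes and the 10 companion lists, written from general knowledge, were chosen with earlier results of these data known. All 6 values are given for called genes without overlap and a log2 fold change of at least 0.5 in size, and for the highest gene of each family. From each companion list, the rule takes up to 3 called rises and 3 called falls, of which some are not reported here. Chosen after their values were seen, or outside that rule, were AKR1B15, AKR7A3, SULT1A4, UGT1A7, UGT1A10, UGT8, SULT2B1, ALDH2, ALDH8A1, PAPSS2, PYCR1, OAT, RDH10, RDH11, DHRS3, SLC35B2, CRABP2, AHR, NQO1, SORD, HBA1 and HBB. The table held 0 further columns of values per library.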

Additional observations from a re-analysis of the deposited data

How the results depend on the processing

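The totals of all genes, of family genes and of companion genes past the threshold stayed within 1.5 times those reported under the 17 alternatives run, but small counts did not. SULT genes called higher, 3 as reported, were 1 with neighbours subtracted and as few as 0 with a library left out. UGT genes called higher, 1 as reported, were 2 with no filter or without shSCR replicate 3 and 0 at a mean of 50. AKR genes called lower were 1 without a trend. Cofactor supply genes called higher, 2 as reported, were 4 with upper quartile scaling or neighbours subtracted, and 1 with the replicate block or without any 1 of shLTBP1 replicate 1 and the shSCR replicates. Across the family, 16 genes were called higher as reported, 12 with neighbours subtracted and 13 without shLTBP1 replicate 1, and the 4 called lower became 5 with neighbours subtracted and with variances moderated without a trend. Directions turned for ALDH1B1 (-0.42), UGP2 (0.15), NFE2L2 (0.021) and PYCR1 (-0.14) with neighbours subtracted. They also turned for 2 genes that never passed, over the libraries left out in turn: ALDH1A2 ran from -0.26 to 0.49 and ALDH6A1 from -0.22 to 0.078. Same-numbered libraries showed no clear common deviation (correlations of -0.00925 to 0.0584 across genes). Pairing by number is not excluded, since a weak shared effect, or one on few genes, could leave such values. With the replicate block 6755 genes passed, against 6788 without it, and 15 family genes were higher and 4 lower, SULT1A2 losing its call (limma adjusted p = 0.059), as did SLC35B3. Leaving out 1 library at a time, LTBP1 ran from -4.17 to -3.95. LTBP1 also lies on chromosome 2, where its neighbours stood at a median of -0.57. With their median subtracted LTBP1 stood at -3.48. Low genes, AKR1B1 and UGT1A6 among them, rest on few reads, and how reads were divided among UGT1A, AKR1C and SULT1A genes limits their single values. The cause of the turned directions was not tested.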
